A study of Mus musculus with 8 samples.

Results

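Glucose enters most mouse cells through transporters of the Slc2a family and is trapped inside by the hexokinases. The 8 genes described here are the transporters Slc2a1, Slc2a3, Slc2a4, Slc2a8, Slc2a10 and Slc2a12 and the hexokinases Hk1 and Hk2, out of 18193 genes with a probe set on the array. They were taken as every probe set that the platform annotation gives to 1 of these genes alone, which made 17 probe sets. A further probe set, which lists Hk1 together with other genes for a total of 6, was left out.

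Affymetrix Mouse Genome arrays were hybridized with total RNA of mouse embryonic fibroblasts (MEFs) immortalized with large T antigen, a viral oncoprotein that keeps cells dividing. There were 4 groups of 2 arrays: VHL/FIH null cells (called double null here), VHL null cells, FIH null cells and wild type cells. All were grown at 21% oxygen in high-glucose medium with serum, and none received a drug or hypoxia. The null cells were made from lines carrying conditional alleles of both genes (VHLdf/FIHdf), of VHL (VHLdf) or of FIH (FIHdf) by infection with an adenovirus that carries Cre recombinase, so genotype and line of origin cannot be told apart. The labels do not say whether wild type cells received the virus, or whether a line was a clone. They call the arrays of a group biological replicates without saying whether these were separate cultures or embryos, so the p-values speak only of the spread among these arrays, which may be technical.

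VHL is the substrate-binding part of a ubiquitin ligase that marks the alpha subunits of the hypoxia-inducible factors (HIF) for destruction when oxygen is present. Hif1an encodes FIH, an oxygen-dependent enzyme that hydroxylates an asparagine of the HIF alpha subunits and so hinders their binding of coactivators. Slc2a1, Hk1 and Hk2 are textbook targets of HIF, which shifts cells toward uptake and fermentation of glucose. Most Slc2a proteins move sugars down their gradient across a membrane. A hexokinase then adds a phosphate that keeps the sugar in the cell and commits it to glycolysis, glycogen or the pentose phosphate route.

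Values are the deposited MAS5 signals, linear intensities per probe set. They are compared between arrays for 1 probe set, never between probe sets. Changes are differences of group means of log2(signal + 16), with adjusted p from limma over all 24523 probe sets tested, those above the median signal of 291.1 on at least 2 arrays. A change was called at an adjusted p under 0.05. Of the 17 member probe sets 13 were tested, and the brightest tested probe set, by mean, stood for its gene (its main probe set). The 4 untested ones were both of Slc2a12 and 2 of the 4 of Slc2a3, which left 7 genes. The transcripts of the deleted genes were checked first. Vhl read 1061.3 and 897.3 in double null, 707.6 and 754.5 in VHL null, 3534 and 3426 in FIH null and 3269 and 3320 in wild type arrays. Hif1an read 1403.6 and 1169.2 in double null, 1912.6 and 2153 in VHL null, 1676 and 1707 in FIH null and 2722 and 3013 in wild type arrays, so that its signal was reduced but not lost in FIH null cells and was also below wild type in VHL null cells, where the change was -0.49 (adjusted p = 0.00886). Of 10 fibroblast markers 6 were above the cutoff on every array (Col1a1, Col1a2, Col3a1, Fn1, Pdgfrb and Vim), and Lum was above it on none. The summed signal of 5 epithelial markers also moved with VHL loss: it ranged from 973 to 1379 in double null and 1063 to 1397 in VHL null, against 2583 to 2629 in FIH null and 2304 to 2737 in wild type arrays, with Cdh1 and Cldn4 above the cutoff on none. Its part in the results on VHL loss was not tested. In bulk RNA such as this, fewer cells of a type and less RNA per cell cannot be told apart. Spiked hybridization controls read higher than in wild type by 0.52 in double null, 0.38 in VHL null and 0.26 in FIH null arrays on the log2 scale, so a scaling to these controls lowers every change against wild type by that amount.

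Loss of VHL went with higher signals of Slc2a1, Hk1 and Hk2, which passed with every one of their tested probe sets in both groups without VHL. Slc2a8 was lower in VHL null cells alone. Slc2a4 was lower near the cutoff, with a call in VHL null but not in double null cells. In VHL null against wild type cells 3 of the 7 tested member genes rose and 2 fell, against a background of 13.2% of all tested probe sets higher and 22.1% lower. Members and the later lists are counted by gene, while background percentages are by probe set. In a fit with 1 probe set for each gene, 1788 of 11564 genes were higher and 3279 lower. Of the 2 falls, that of Slc2a4 rests on VHL null signals under the cutoff and on a filter passed through the groups where it was high. The balance moved with scaling: it was 4 higher and 0 lower with quantile normalization, median centring or centring per chromosome, which gained Slc2a3 and lost Slc2a4 and Slc2a8, and 3 higher and 3 lower with scaling to the hybridization controls, which gained Slc2a10. The median change of the 7 genes was 0.52, beside -0.07 over all probe sets tested. In double null against wild type cells 4 rose and 0 fell, against a background of 14.1% higher and 20.0% lower, and the median change was 1.22, beside -0.06. By gene, 2060 of 11564 were higher and 2729 lower in this comparison. In FIH null against wild type cells 0 of the 7 passed by limma, where the background was 4.33% in either direction, and 1 of the 7, Slc2a1, had an unadjusted p under 0.05. By gene, 758 of 11564 were called there.

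**Figure D1:**
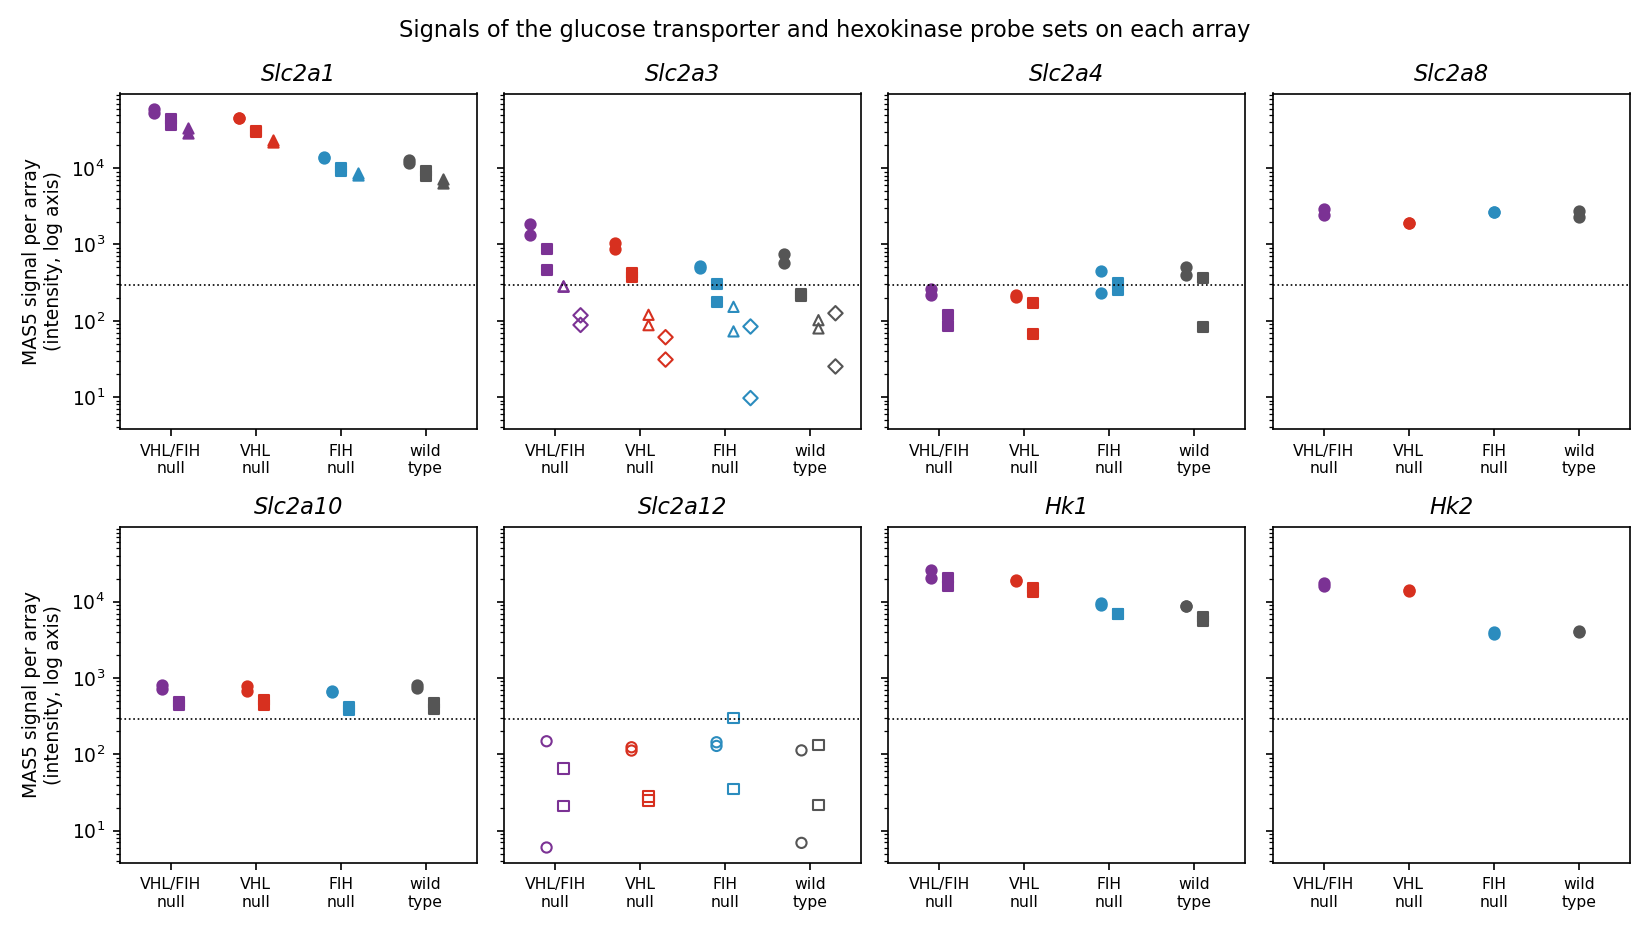
MAS5 signal (linear intensity, log axis) of every member probe set on each of the 8 arrays, with 1 panel per gene and the groups from left to right as double null, VHL null, FIH null and wild type. Shapes stand for the probe sets of a gene in order of mean signal, open symbols for untested probe sets, and the dotted line for the cutoff of 291.1. The double null and VHL null points of Slc2a1, Hk1 and Hk2 lie above those of FIH null and wild type, while the Slc2a12 points lie below the cutoff on all arrays but 1.

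Slc2a1, the basal glucose transporter of most cells and of the blood-brain barrier, lies at chr4:119108745-119137330 (GRCm38.p6). Its main probe set, 1434773_a_at, read 60111 and 52788 in double null, 44990.1 and 45296 in VHL null, 13633 and 14049 in FIH null and 12764 and 11858 in wild type arrays. Every double null array was above every VHL null array, these lay far above the other 4, and the FIH null arrays sat just above wild type. The means were 56449 ± 5179 in double null, 45143 ± 217 in VHL null, 13841 ± 294 in FIH null and 12311 ± 640 in wild type cells (SD, n = 2 each). VHL null cells lay 1.87 above wild type on the log2 scale (SE 0.0704, limma adjusted p = 6.13e-08), which is 3.67-fold, and double null cells exceeded wild type by 2.19 (adjusted p = 1.14e-08), which is 4.57-fold. FIH null and wild type, neighbours in this order, were not separated by the test: the difference was 0.17 with a 95% interval of 0.01 to 0.33 (adjusted p = 0.237). The other 2 probe sets of Slc2a1 gave changes of 1.82 and 1.74 in VHL null and of 2.25 and 2.19 in double null against wild type cells. In FIH null against wild type cells they gave 0.18 (limma adjusted p = 0.318) and 0.31 (95% interval 0.10 to 0.52, adjusted p = 0.109). The larger of these, on 1426600_at, was called with median centring (limma adjusted p = 0.0328).

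Hk2, the inducible hexokinase of muscle, fat and tumour cells, which binds mitochondria, lies at chr6:82725025-82774454. Its single probe set, 1422612_at, read 17812 and 16036 in double null, 14299 and 13879 in VHL null, 3779 and 4034 in FIH null and 4033 and 4096 in wild type arrays. The order of the groups was that of Slc2a1 except that the FIH null and wild type arrays overlapped. VHL null cells exceeded wild type by 1.79 (SE 0.0716, limma adjusted p = 9.28e-08), or 3.46-fold, and double null cells by 2.05 (adjusted p = 2.07e-08), or 4.15-fold. FIH null cells differed from wild type by -0.06, with a 95% interval of -0.22 to 0.10 (adjusted p = 0.729).

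Hk1, the broadly expressed hexokinase that is also held at the outer mitochondrial membrane, lies at chr10:62268855-62379920. Its main probe set, 1437974_a_at, read 25703 and 20502 in double null, 18613 and 19267 in VHL null, 9044 and 9535 in FIH null and 8777 and 8874 in wild type arrays. Arrays with and without VHL loss did not overlap, but the gap was smaller than for Hk2. VHL null cells exceeded wild type by 1.10 (SE 0.0919, limma adjusted p = 1.56e-05), or 2.14-fold, and double null cells by 1.38 (adjusted p = 1.79e-06), or 2.60-fold. The interval of the VHL null change, 0.90 to 1.30, lay below that of Hk2, 1.63 to 1.95, although no test set the 2 genes against each other. A second probe set of Hk1 gave 1.26 in VHL null and 1.62 in double null against wild type cells. FIH null cells differed from wild type by 0.07 (limma adjusted p = 0.731) on the main probe set and by 0.23 (adjusted p = 0.335) on the second.

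HIF binds DNA at short sites that hold the letters ACGTG or GCGTG. Bases upstream of the start of each gene were taken from the RefSeq promoter table (GRCm38.p6), 250 for each start, which had an entry for 6 of the 8 genes with 7 starts. They are shown for the 3 genes that rose with VHL loss in every probe set tested, and for Slc2a10, which was called in no comparison, with matches on either strand in capitals. On the reverse strand ACGTG reads CACGT and GCGTG reads CACGC.
Slc2a1 (chr4:119108495-119108744, plus strand): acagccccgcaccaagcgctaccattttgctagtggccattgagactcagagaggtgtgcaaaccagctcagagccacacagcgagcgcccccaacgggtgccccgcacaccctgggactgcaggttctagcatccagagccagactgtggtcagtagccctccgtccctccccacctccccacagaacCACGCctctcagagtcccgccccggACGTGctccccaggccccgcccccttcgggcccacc
Hk2 (chr6:82774455-82774704, minus strand): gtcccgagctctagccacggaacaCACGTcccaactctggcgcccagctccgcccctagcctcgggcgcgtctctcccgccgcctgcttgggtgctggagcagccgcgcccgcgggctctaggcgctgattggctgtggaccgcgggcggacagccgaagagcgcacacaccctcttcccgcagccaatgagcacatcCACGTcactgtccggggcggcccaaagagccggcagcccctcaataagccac
Hk1 (chr10:62340422-62340671, minus strand): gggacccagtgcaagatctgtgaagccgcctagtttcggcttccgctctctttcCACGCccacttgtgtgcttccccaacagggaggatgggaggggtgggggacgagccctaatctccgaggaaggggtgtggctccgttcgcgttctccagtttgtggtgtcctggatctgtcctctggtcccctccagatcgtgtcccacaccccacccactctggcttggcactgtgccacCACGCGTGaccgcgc
Slc2a10 (chr2:165503647-165503896, plus strand): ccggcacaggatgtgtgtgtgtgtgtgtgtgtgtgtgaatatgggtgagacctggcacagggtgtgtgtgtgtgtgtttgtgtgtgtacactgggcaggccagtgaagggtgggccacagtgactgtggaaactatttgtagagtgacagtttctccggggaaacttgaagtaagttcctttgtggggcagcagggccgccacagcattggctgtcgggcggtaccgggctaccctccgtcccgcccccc
The Slc2a1 window held GCGTG on the reverse strand 61 to 57 bases before the start and ACGTG on the forward strand 36 to 32 bases before it. The Hk2 window held ACGTG on the reverse strand at 226 to 222 and at 52 to 48 bases before the start. The Hk1 window shown held GCGTG at 196 to 192 and, overlapping each other on opposite strands, at 15 to 11 and 12 to 8 bases before the start, while the window of the other Hk1 start held none. Slc2a8 held 1 GCGTG, at 173 to 169 bases before its start, and Slc2a10 and Slc2a12 held none. Of all 32841 promoters listed, 38.6% had at least 1 match in the same length, 16.6% for ACGTG and 28.2% for GCGTG, and 16.7% had 2 or more. These matches are letters in a window and were not tested as binding sites.

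Slc2a3, the high-affinity transporter best known from neurons, lies at chr6:122727809-122802363. Its main probe set, 1437052_s_at, read 1842.5 and 1325.5 in double null, 861.1 and 1056.9 in VHL null, 498.8 and 520.5 in FIH null and 575.9 and 760.5 in wild type arrays. Double null was highest and FIH null lowest, and the order of FIH null and wild type was the reverse of that for Slc2a1. The double null cells exceeded wild type by 1.22 (SE 0.202, limma adjusted p = 0.00104), or 2.33-fold, and exceeded FIH null cells by 1.59 (adjusted p = 1.56e-04). VHL null and wild type cells, neighbours in the order, differed by 0.52 with a 95% interval of 0.07 to 0.97, which did not pass (adjusted p = 0.0709), and FIH null and wild type cells by -0.37 (adjusted p = 0.380). A second probe set, 1455898_x_at, has a name that marks possible cross-hybridization, as does that of the first. Its wild type mean of 216.65 was below the cutoff, and double null cells were at least 2.31-fold higher (limma adjusted p = 0.00757). That p is given as a description, since the filter was passed through 5 arrays where the signal was high, those with VHL loss and 1 of FIH null. That call ended without double null replicate 1 (adjusted p = 0.0745). The untested probe set 1421924_at stayed under the cutoff on every array, at 283.7 and 279.1 in double null arrays and from 72.6 to 152.3 on the other 6. The summed signal of 5 neuron markers ranged from 4131 to 5122 in double null, 1826 to 1842 in VHL null, 4285 to 4610 in FIH null and 3421 to 3633 in wild type arrays. Of these markers, Tubb3 was above the cutoff on every array and Snap25 on none. The part of this sum in the Slc2a3 result was not tested.

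Slc2a4, the insulin-responsive transporter of muscle and fat (chr11:69942286-69948216), was near the cutoff. Its main probe set, 1415958_at, read 215.9 and 259.7 in double null, 204 and 218.7 in VHL null, 455.6 and 234.2 in FIH null and 512.7 and 397.8 in wild type arrays. It passed the filter through 3 arrays, those of wild type and 1 of FIH null, and all arrays with VHL loss were below the cutoff. VHL null cells were lower than wild type by at least 1.56-fold (limma adjusted p = 0.0398). That p is given as a description, since the filter was passed through groups where the gene was high, and the double null difference did not pass (adjusted p = 0.0730). The VHL null call ended under 10 of the 23 alternatives, among them leaving out any 1 of the 4 arrays compared (adjusted p = 0.0695 to 0.20). A second probe set ran from 67.9 to 359.4 and was called in no comparison. Adipocyte markers, 5 with a probe set, summed to between 2119 and 2298 in double null, 421 and 718 in VHL null, 347 and 671 in FIH null and 738 and 868 in wild type arrays, with Adipoq, Cidec and Lep above the cutoff on none. Skeletal muscle markers, 6 in number, summed to between 2096 and 2211 in double null, 1029 and 1112 in VHL null, 1020 and 1145 in FIH null and 999.2 and 1093 in wild type arrays. Of these, Acta1 was above the cutoff on every array, and Myod1, Myog, Myh3 and Tnnt3 on none. The part of both marker sums in the Slc2a4 result was not tested.

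Slc2a8, an intracellular hexose transporter (chr2:32972981-32982083), was set apart by the VHL null group alone. Its probe set, 1450628_at, read 2892 and 2421 in double null, 1937 and 1888 in VHL null, 2657 and 2632 in FIH null and 2787 and 2321 in wild type arrays. Both VHL null arrays lay below the other 6, which overlapped. VHL null cells differed from wild type by -0.41 on the log2 scale (SE 0.115, limma adjusted p = 0.0194), and double null cells exceeded VHL null cells by 0.47 (adjusted p = 0.0120). Double null cells differed from wild type by 0.06, with a 95% interval of -0.20 to 0.31 (adjusted p = 0.743). The VHL null call ended under 8 of 24 alternatives, including quantile normalization (-0.26, adjusted p = 0.120) and leaving out VHL null replicate 1, VHL null replicate 2 or wild type replicate 1 (adjusted p = 0.0656 to 0.153). Scaling to the hybridization controls turned the difference of double null from wild type cells to -0.46 (adjusted p = 0.00344).

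Slc2a10, a transporter whose loss causes arterial tortuosity syndrome in humans (chr2:165503897-165519917), had signals of 712.8 and 805.6 in double null, 780.7 and 674 in VHL null, 657.6 and 671.1 in FIH null and 808.7 and 728.5 in wild type arrays for 1449477_s_at. Double null, VHL null and wild type arrays overlapped and both FIH null arrays lay just below them, but it was called in no comparison (limma adjusted p from 0.407 to 0.947). A second probe set ran from 379.6 to 511.2 and was also called in none. Slc2a12, a transporter known from muscle and fat (chr10:22644990-22703880), ran from 6 to 296.9 over 2 probe sets and 8 arrays. It was above the cutoff on 1 array, FIH null replicate 1, and was not tested.

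**Figure D2:**
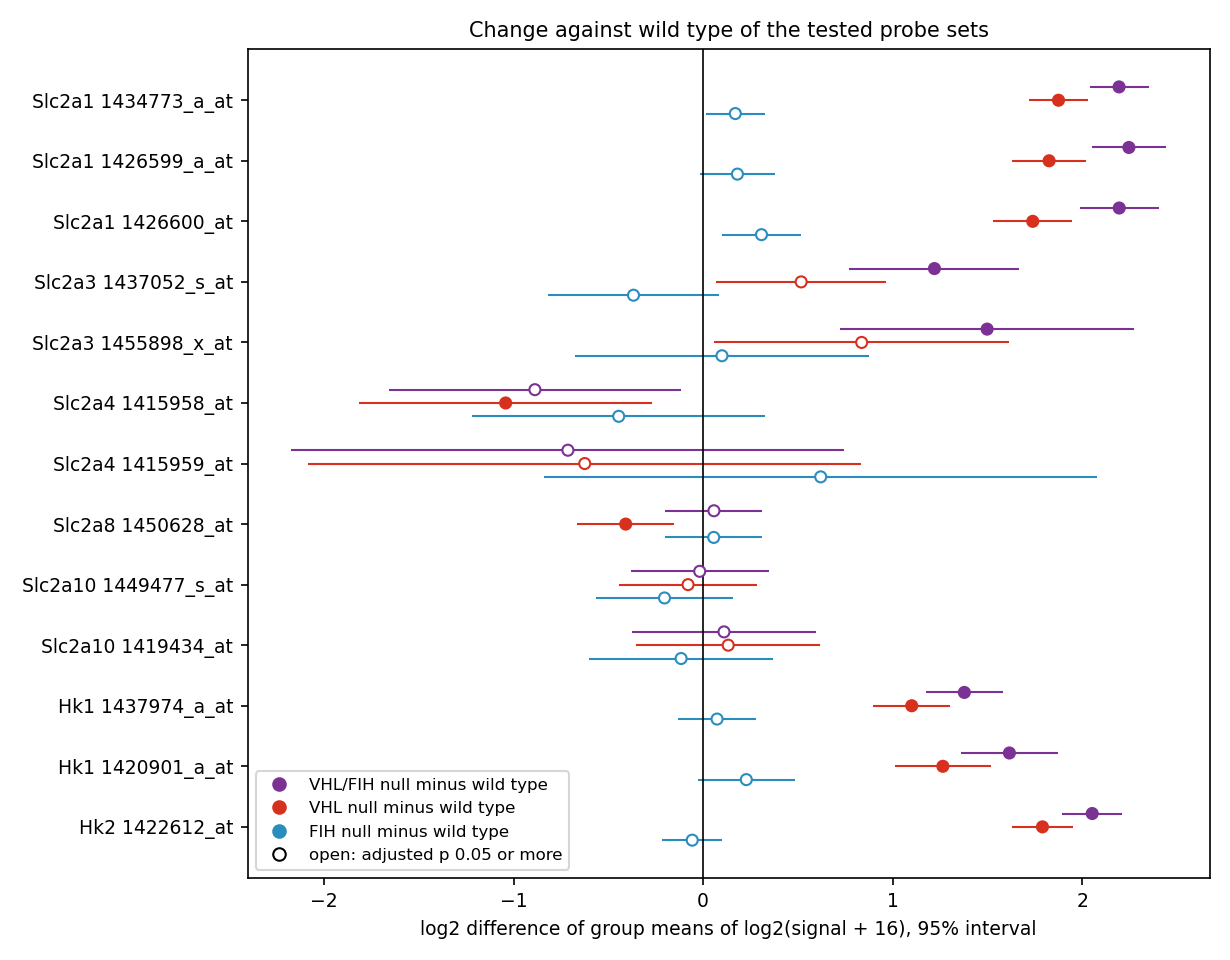
Difference from wild type in log2(signal + 16) for the 13 tested member probe sets, as points with 95% intervals from limma, for double null, VHL null and FIH null cells, with open points where the adjusted p was 0.05 or more. The Slc2a1 points run from 2.19 to 2.25 in double null and from 1.74 to 1.87 in VHL null cells, and every FIH null point is open.

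The next question was whether these genes differed further in cells that lacked FIH as well as VHL. The signals lay higher in double null cells by small amounts: in double null against VHL null cells 5 of the 7 tested genes passed, all of them upward. The background was 29.8% of all tested probe sets called in either direction. With 1 probe set for each gene, 4355 of 11564 genes were called, 2574 of them higher. The median change of the 7 genes was 0.28, beside 0.02 over all probe sets. Slc2a3 rose by 0.70 (SE 0.202, limma adjusted p = 0.0240), which is 1.63-fold, and Slc2a1 by 0.32 (adjusted p = 0.00649), which is 1.25-fold. Hk1 rose by 0.28 (adjusted p = 0.0434) and Hk2 by 0.26 (adjusted p = 0.0189), which is 1.20-fold, and Slc2a8 is given above. None of the 5 reached 2-fold. The 2 further probe sets of Slc2a1 rose by 0.42 (adjusted p = 0.00496) and 0.46 (adjusted p = 0.00455).

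These increments leaned on single arrays and on scaling. Double null replicate 1 read above double null replicate 2 in 9 of the 13 tested member probe sets, beside 12268 of all 24523 probe sets tested. These were the 8 of Slc2a1, Slc2a3, Hk1 and Hk2, which are not independent within a gene, and that of Slc2a8. Without double null replicate 1 the number of genes called was 1, Slc2a1 (0.23, limma adjusted p = 0.0354), and it was 2 without either VHL null replicate. Scaling to the hybridization controls also left 1 gene, Slc2a3, with Slc2a1 at 0.17 (adjusted p = 0.0742) by its main probe set, and at 0.28 (adjusted p = 0.0286) and 0.31 (adjusted p = 0.0258) by the others.

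**Figure D3:**
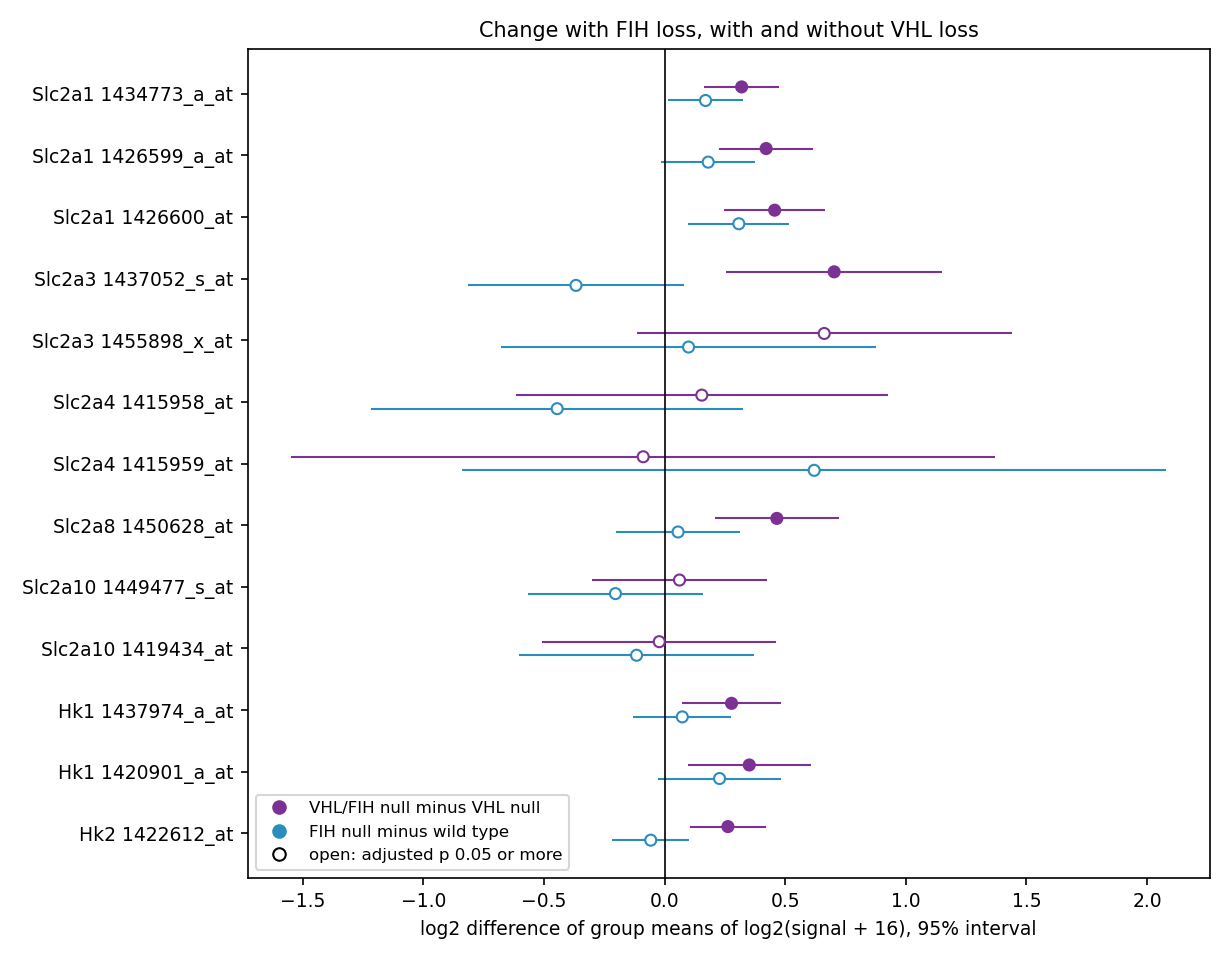
Change with loss of FIH in log2(signal + 16) for the 13 tested member probe sets, as points with 95% intervals from limma, in cells without VHL (double null minus VHL null) and in cells with VHL (FIH null minus wild type), with open points where the adjusted p was 0.05 or more. Slc2a1, Hk1 and Hk2 lie above 0 in cells without VHL, and the main probe set of Slc2a3 lies on opposite sides of 0, at 0.70 without VHL and -0.37 with it.

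Whether FIH loss acted differently with and without VHL was tested by the interaction, the double null minus VHL null difference less the FIH null minus wild type difference. Of the 7 tested genes 1 passed, Slc2a3, higher, against a background of 8.96% higher and 6.76% lower. In a fit with 1 probe set for each gene, 1554 of 11564 genes were higher and 979 lower, and Hk2 was called as well. Counts this small cannot be set apart from these shares. The interaction of Slc2a3 was 1.07 (SE 0.286, 95% interval 0.44 to 1.70, limma adjusted p = 0.0297), but its second probe set gave 0.56 (adjusted p = 0.489). For Slc2a1 the interaction was 0.15 (interval -0.07 to 0.37, adjusted p = 0.350), for Hk1 0.20 (interval -0.08 to 0.49, adjusted p = 0.329) and for Hk2 0.32 (interval 0.10 to 0.54, adjusted p = 0.0576). For Slc2a8 it was 0.41 (interval 0.05 to 0.77, adjusted p = 0.122). A larger effect of FIH loss in cells without VHL was thus not shown for these 4 genes, and the intervals allow one. For Hk2 the outcome depended on processing: its interaction was called under 5 of 23 alternatives, among them scaling to the hybridization controls, and stayed uncalled under 18. Double null and FIH null cells differ by loss of VHL and also by line of origin. Between them 4 of 7 genes were higher in double null cells and 0 lower, against a background of 16.8% higher and 21.5% lower. By gene, 2380 of 11564 were higher and 2887 lower. The 4 member genes were Slc2a1 by 2.02, Hk2 by 2.11, Slc2a3 by 1.59 and Hk1 by 1.30 (limma adjusted p from 1.44e-08 to 1.56e-04). These comparisons share the double null arrays with those above.

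Relatives of these genes were mostly not measurable: of 13 sugar transporters and hexokinases listed, 11 had a probe set and 4 were tested. In VHL null against wild type cells 0 rose, and 1 was called lower, Slc2a6, a lysosomal transporter, but its means in both groups lay below the cutoff and no change is reported for it. In double null against wild type cells 1 was called higher and 0 lower, and in FIH null against wild type cells 0 passed by limma, with 0 at an unadjusted p under 0.05. Over all tested probe sets, 13.2% were higher and 22.1% lower in VHL null, and 14.1% and 20.0% in double null against wild type cells. The share called in FIH null against wild type cells was 4.33% in either direction. The gene called higher, named after its values were seen, was Slc2a13, a proton-coupled inositol transporter. It read 977.7 and 870.4 in double null, 147.7 and 125.9 in VHL null, 242.4 and 204.2 in FIH null and 209.5 and 239.4 in wild type arrays. Double null arrays alone were above the cutoff, at least 3.17-fold above any other group. It entered the fit through those 2 arrays, so this is a description with no test.

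Genes that control the transporters or work beside the hexokinases were mixed: of 15 listed 12 were tested, and 4 rose and 4 fell in VHL null against wild type cells. The background there was 13.2% of all tested probe sets higher and 22.1% lower, and the median change of the 12 genes was -0.02. The largest rise was Txnip, an arrestin-like protein induced by glucose that drives internalization of Slc2a1 protein. Txnip read 13642 and 12183 in double null, 10220.4 and 9278 in VHL null, 2861 and 2658 in FIH null and 2583 and 2646 in wild type arrays. The arrays with VHL loss were all higher, in the same order as Slc2a1. Txnip rose by 1.89 in VHL null (limma adjusted p = 1.70e-07) and by 2.29 in double null against wild type cells (adjusted p = 2.69e-08), and by 0.40 in double null against VHL null cells (adjusted p = 0.00438). Its relative Arrdc4 rose by 1.56 in VHL null against wild type cells (adjusted p = 1.42e-05). Gipc1, a scaffold protein that binds the tail of Slc2a1, fell by 0.78 in VHL null cells (adjusted p = 3.68e-05). Adpgk, an ADP-dependent glucokinase, fell by 0.77 on its main probe set (adjusted p = 7.09e-04), a call that ended when its probe sets were averaged (-0.17). Its other tested probe set went the opposite way, with means of 1056.9 in double null, 1260.2 in VHL null, 865.1 in FIH null and 932 in wild type arrays.

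Of these 12 genes, 3 rose and 3 fell in double null against wild type cells, against a background of 14.1% higher and 20.0% lower. In FIH null against wild type cells 0 passed by limma, where the background was 4.33%, with 1 at an unadjusted p under 0.05. The genes named here beyond Txnip, Arrdc4, Gipc1 and Adpgk were chosen after their values were seen. The third rise was that of Vdac1 (0.28), the mitochondrial channel to which hexokinases bind. The falls were Adpgk (-1.06 on its main probe set, with the other one higher than wild type), Tbc1d4 (-0.52) and Tbc1d1 (-0.44). Tbc1d4 and Tbc1d1 are Rab GTPase-activating proteins that hold Slc2a4 vesicles back. In double null against VHL null cells 2 rose, Gipc1 (0.74) and Txnip, and 3 fell, Tbc1d1 (-0.41), G6pc3 (-0.35), a glucose-6-phosphatase, and Vdac2 (-0.26). The background in that comparison was 29.8% of all tested probe sets called in either direction. Gipc1 read 5189 and 5467 in double null, 3068 and 3281 in VHL null, 5280.1 and 5367 in FIH null and 5312 and 5642 in wild type arrays. Its low group was thus VHL null alone, and its interaction passed at 0.78 (limma adjusted p = 8.20e-04), as did those of G6pc3 (-0.60) and Vdac2 (-0.34).

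The steps that follow glucose phosphorylation rose broadly with VHL loss: of 18 genes listed 14 were tested, and 12 rose and 0 fell in VHL null against wild type cells. The background there was 13.2% of all tested probe sets higher and 22.1% lower, and the median change of the 14 genes was 0.77. Double null cells had 12 higher and 1 lower than wild type, against a background of 14.1% higher and 20.0% lower. In FIH null against wild type cells 3 rose and 0 fell, where the background was 4.33% in either direction. The largest rises in VHL null cells were Pdk1 (2.65, limma adjusted p = 4.26e-09), a kinase that inhibits pyruvate dehydrogenase, and Aldoc (2.25, adjusted p = 8.19e-08), an aldolase. Pfkp (2.23, adjusted p = 5.35e-08), a phosphofructokinase, and Pgm1 (2.04, adjusted p = 2.40e-07), which links glucose phosphate to glycogen, followed. The 3 that rose in FIH null against wild type cells were Aldoc (0.87), Slc16a3 (0.64), the lactate exporter, and Pdk1 (0.39). Whether this list differed there from the 7 transporter and hexokinase genes was not tested. Between double null and VHL null cells 2 rose, Aldoc (0.74) and Slc16a3 (0.37), and 3 fell, Pgm1 (-0.28), Pgm2 (-0.27) and Pfkm (-0.24). The background there was 29.8% called in either direction. Pfkm, the muscle phosphofructokinase, was also the gene that fell in double null against wild type cells (-0.30). Slc16a3, Pgm2 and Pfkm were named after their values were seen.

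The genes whose pattern was most like that of each member were found by the root mean square distance between log2 signals, each centred over the 8 arrays, among 11564 tested genes. As a description of these arrays, Slc2a1 and Hk2 were each other's nearest gene, at a distance of 0.0911. Txnip (0.0938 from Slc2a1 and 0.103 from Hk2) and Ero1a (0.0995 from Slc2a1 and 0.107 from Hk2), an oxidase of the endoplasmic reticulum, came next for both. Hk1 was nearest to Grhpr (0.0799), Sap30 (0.101) and Eif1b (0.102). Slc2a3 was nearest to Hebp1 (0.131), a heme-binding protein gene also on chromosome 6, Thbs1 (0.172) and Crem (0.174). Hebp1 averaged 7335 in double null, 4585 in VHL null, 2523 in FIH null and 3060 in wild type arrays, the group order of Slc2a3. Slc2a8 was nearest to Frg1 (0.0552), Mtmr3 (0.0576) and Senp5 (0.0647), each lowest in VHL null cells. Slc2a4 was nearest to Lce1i (0.190), Pwwp2b (0.229) and Sort1 (0.229), and Slc2a10 to 2310047K21Rik (0.0515), Inip (0.0521) and Rfwd3 (0.0542).

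**Figure D4:**
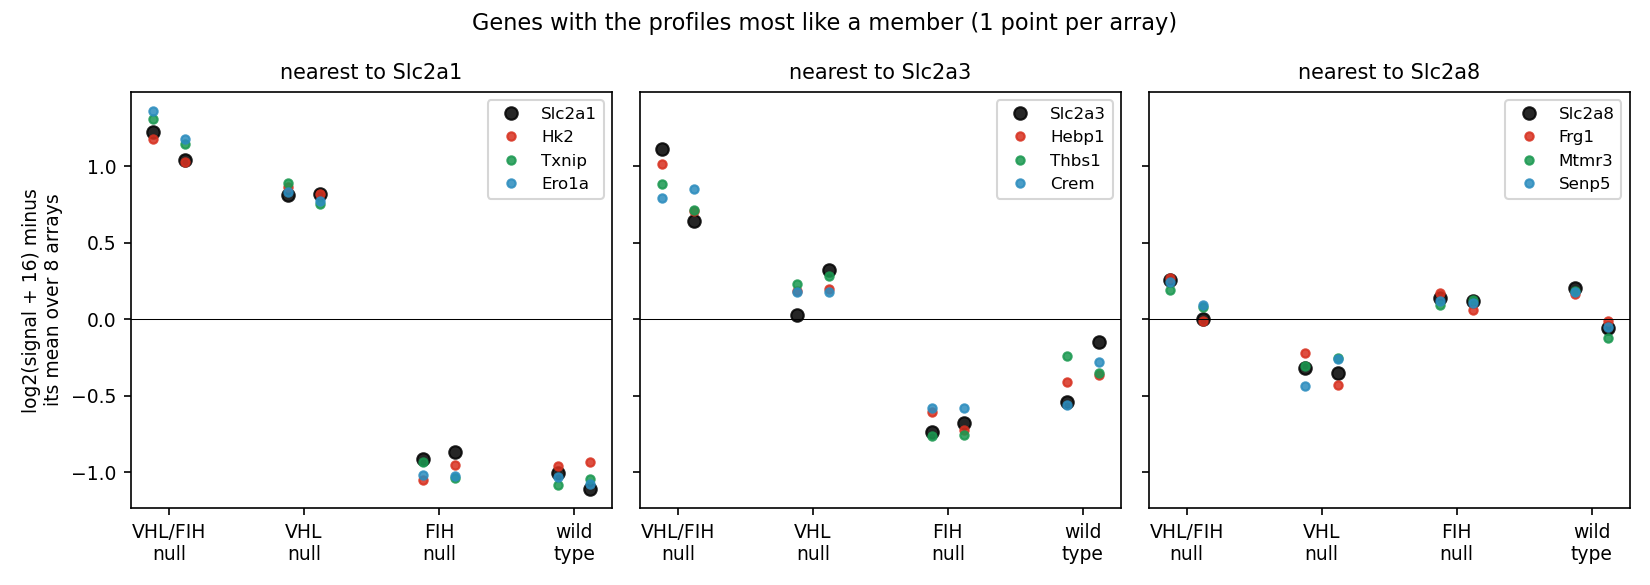
Log2(signal + 16) less its mean over the 8 arrays, 1 point per array, for Slc2a1, Slc2a3 and Slc2a8 (black) and the 3 genes nearest to each (coloured), with the groups from left to right as double null, VHL null, FIH null and wild type. The points near Slc2a1 separate the groups with VHL loss from the others, those near Slc2a3 place the FIH null arrays lowest, and those near Slc2a8 place the VHL null arrays lowest.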

How the data were processed

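The authors deposited 1 linear intensity per probe set and array, a MAS5 signal according to the tool named per the submitters' processing notes; its version is not given in the sources used here. Each array's mean with 2% trimmed from each end was 2500.01, so the signals were used without further scaling, and changes are relative to that mean. The intensities carry no counts, so the number of arrays limits the precision. Probe sets were named by the platform's annotation, with symbols updated through Entrez numbers: 34945 of the 45101 had 1 symbol, 932 had several, and the rest had none or were array controls.

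The deposited intensities were transformed to log2(signal + 16). A probe set was tested if it exceeded 291.1, the median of all non-control signals, on at least 2 arrays, which kept 24523. The values of all 8 arrays went into limma 3.58.1 (R 4.3.3), where lmFit estimated a mean for each group. The eBayes step used a variance trend, with 4 residual and 6.42 prior degrees of freedom. There were 6 comparisons, 5 between pairs of groups and the interaction of both losses, with two-sided p-values adjusted by Benjamini-Hochberg over the tested probe sets of each. The fit was tested on simulated data. Where a group's mean was below 291.1, the fold is the other mean over 291.1, written as at least that fold.

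The members and the gene lists were chosen with earlier results of these data known. In the lists of relatives, partners and downstream genes, up to 4 genes per list were named by the largest change among those called in VHL null against wild type cells, and the 3 nearest genes of each member by distance. Marker lists of fibroblasts, adipocytes, skeletal muscle and neurons are described beside the results. Of the others, 2 of 5 macrophage markers (Cd68, Csf1r), 1 of 5 epithelial markers (Krt18), 0 of 5 endothelial and 0 of 3 erythroid markers were above the cutoff on every array. Alternatives changed the pseudocount, filter, scaling, variance model, arrays used, handling of probe sets and size of change.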

Additional observations from a re-analysis of the deposited data

Results flagged for a closer look

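The change of Slc2a3 with loss of FIH differed between cells with and without VHL, by a test of the difference itself. On 1437052_s_at the change was 0.70 in cells without VHL (double null minus VHL null) and -0.37 in cells with VHL (FIH null minus wild type), and their difference was 1.07 (SE 0.286, limma adjusted p = 0.0297). The second tested probe set gave 0.56 (adjusted p = 0.489), and both probe sets bear a suffix that marks possible cross-hybridization. The call ended under 9 of 21 alternatives (adjusted p over all of them from 0.0131 to 0.128), among them leaving out double null replicate 1, VHL null replicate 1, FIH null replicate 1, FIH null replicate 2 or wild type replicate 2.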

How the results depend on the processing

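The calls of Slc2a1, Hk1 and Hk2 in the comparisons VHL null against wild type, double null against wild type and double null against FIH null held under every alternative run. The number of member genes called between double null and FIH null cells was 4, and 3 with the filter at the 75th percentile or without probe sets of the _x_at and _s_at kinds, which drop Slc2a3, with 4 to 4 without 1 array. For VHL null against wild type it was 5 (3 higher and 2 lower), 4 (4 higher and 0 lower) with quantile normalization, median centring or centring per chromosome, 6 (3 and 3) with scaling to the hybridization controls, and 3 without a variance trend, with 3 to 5 without 1 array (3 without VHL null replicate 1, VHL null replicate 2 or wild type replicate 1). For double null against wild type it was 4, and 7 with scaling to the hybridization controls (4 higher and 3 lower), with 4 to 5 without 1 array. For FIH null against wild type it was 0, and 2 with that scaling, Hk2 (-0.32) and Slc2a3 (-0.63), with 0 to 0 without 1 array. For double null against VHL null it was 5, and 1 with that scaling, 2 with centring per chromosome or without a variance trend and 0 at 2-fold or more, with 1 to 5 without 1 array. For the interaction it was 1, and 0 without a filter, with quantile normalization, without a variance trend or without probe sets of the _x_at and _s_at kinds, and 2 with the hybridization scaling or 1 probe set per gene, with 0 to 3 without 1 array (3 without double null replicate 2; 0 without double null replicate 1, VHL null replicate 1, FIH null replicate 1, FIH null replicate 2 or wild type replicate 2). The causes were not tested, beyond the uniform shift that scaling makes.

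Values that changed sign were all uncalled as reported. Scaling to the hybridization controls turned FIH null against wild type to -0.088 and -0.077 for Slc2a1, -0.16 for Slc2a3 1455898_x_at, -0.20 for Slc2a8 and -0.18 and -0.030 for Hk1. It turned Slc2a8 to -0.46 in double null against wild type and -0.26 against FIH null, and Slc2a10 to -0.083 in double null against VHL null and -0.078 against FIH null. Median centring gave 0.035 for Hk2 in FIH null against wild type and -0.023 for Slc2a8 in double null against FIH null. Slc2a10 turned to 0.033, 0.000975, 0.033 and 0.026 in VHL null and 0.043, 0.050, 0.024 and 0.046 in double null against wild type, with quantile normalization, median centring, centring per chromosome and the mean of probe sets in that order. Centring per chromosome gave -0.022 for Slc2a10 in double null against VHL null. The mean of probe sets gave Slc2a4 0.087 in FIH null against wild type and -0.055 for the interaction. Without 1 array Slc2a10 ran from -0.18 to 0.024 in VHL null and -0.10 to 0.068 in double null against wild type and from -0.042 to 0.17 in double null against VHL null. Slc2a8 ran from -0.074 to 0.19 in double null against wild type, -0.075 to 0.19 in FIH null against wild type and -0.13 to 0.13 in double null against FIH null. Slc2a4 ran from -0.90 to 0.012 in FIH null against wild type and -0.90 to 0.015 in double null against FIH null, Slc2a3 1455898_x_at from -0.26 to 0.45 in FIH null against wild type, and the interaction of Hk1 1420901_a_at from -0.065 to 0.31.

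The background also depended on scaling. The share of called probe sets that were higher was 37.5% in VHL null against wild type, 5.22% with the hybridization scaling and 53.1% with median centring, and 41.3%, 4.85% and 54.2% in double null against wild type. It was 26.8%, 1.31% and 64.3% in FIH null against wild type, and 57.0%, 77.6% and 36.4% for the interaction. With the hybridization scaling it was 26.8% against 53.7% as reported in double null against VHL null and 15.2% against 43.8% in double null against FIH null. The number of probe sets called was 8658 in VHL null against wild type (15370 with that scaling, 1180 at 2-fold or more), 8358 in double null against wild type (18121 and 1563) and 1062 in FIH null against wild type (7942 and 367, and 520 without FIH null replicate 1).

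Replicate numbers did not pair the arrays: replicate 1 minus replicate 2, set between groups, gave r of -0.0157 to 0.0318 in 6 pairs. With the replicate number as a block the member genes called stayed at 5, 4, 0, 5, 4 and 1 in the comparisons VHL null, double null and FIH null against wild type, double null against VHL null, double null against FIH null and the interaction, and the block changed no call of a member. An interaction with only the groups compared uses all groups and has no separate value. Signals near 291.1, as of Slc2a4 and Slc2a12, carry little information on level.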
